A study of Rattus norvegicus with 16 samples.

Results

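Neurotrophins are secreted growth factors that act on neurons and glia through Trk receptor tyrosine kinases. Ntrk2 encodes TrkB, the receptor of brain-derived neurotrophic factor (BDNF), and Ntrk3 encodes TrkC, the receptor of neurotrophin-3. Sort1 encodes sortilin, a sorting receptor that carries BDNF into the secretory pathway and, at the cell surface, binds proneurotrophins together with the receptor p75NTR. In the spinal dorsal horn, where sensory fibres from the body end, BDNF and TrkB are known for their part in the sensitisation of pain pathways. N4-acetylcytidine (ac4C) is an acetylated cytidine in RNA, written by the acetyltransferase NAT10, and was measured here over these transcripts.

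The 3 genes, Ntrk2 (ENSRNOG00000018839), Ntrk3 (ENSRNOG00000018674) and Sort1 (ENSRNOG00000031814), were taken by name from a deposited table of 8671 genes enriched in an RNA immunoprecipitation (RIP), and their ac4C peaks were taken by identifier from 6 peak lists. All 3 had a row, and 8564 genes of the table had a symbol of their own and served as the background. The 16 libraries came from the dorsal horn of wild-type rats and comprised 12 ac4C libraries and 4 RIP libraries. Each ac4C list rested on 1 immunoprecipitated (IP) library and its input, with 3 lists from normal rats and 3 from rats with cancer-induced bone pain (CIBP), labelled as biological replicates. The RIP had 2 IP and 2 input libraries, all from CIBP rats and with no control animals. Strain, sex, age, how the tumour was induced and the time after it are not given in the sources used here. The design text speaks of interference with an acetyltransferase gene written as NAT0, but none of the 16 samples is labelled with it.

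The deposited CIBP lists are themselves named CFA, and the grouping by the labels was kept for every value. The labels describe an ac4C immunoprecipitation kit for all 16 libraries, the RIP libraries included, and the sources used here name no separate RIP target. Of 57 cell type markers, 40 had a row in the RIP table. These included 8 of 13 dorsal horn neuron genes, among them Slc32a1, Gad1 and Slc17a6, while Lmx1b, Tlx3, Pdyn and Nmu were among those without one. They also included all 6 astrocyte and all 6 oligodendrocyte genes, 3 of 4 oligodendrocyte precursor genes, 4 of 6 microglial and 2 of 4 endothelial genes, 3 of 5 motor neuron genes and 4 of 6 genes of Schwann cells and sensory ganglia. Of 7 general neuron genes, 4 had a row, and Snap25, Syt1 and Map2 had none. A gene without a row did not pass the table's threshold or was not measured, which cannot be told apart. The files used state no read totals, and depth per library is therefore unknown. In tissue, fewer cells of a type and less RNA per cell cannot be told apart either.

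Peak lists differed in how many peaks stood close to the limit of significance. The main data here were peaks with a false discovery rate (FDR) of at most 0.05, 899 to 1240 per list. The list of CIBP 1 held 50417 peaks as deposited, of which only 1.82% met that limit, against 51.3% to 76.6% in the other 5 lists. In that list 49204 peaks had one and the same fold of 10.6 and FDR of 0.0562, so values from all deposited peaks are given beside those under the limit.

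Ntrk2 and Sort1 each had an ac4C peak in all 3 CIBP lists and in 1 of 3 control lists at an FDR of at most 0.05, and Ntrk3 had none in any list. With all deposited peaks, Ntrk2 had a peak in 3 CIBP and 2 control lists, Sort1 in 3 and 3, and Ntrk3 in 1 and 0. The number of control lists with a peak in Ntrk2 and Sort1 therefore depended on the FDR limit. The 4 control peaks left out by the limit had an FDR of 0.0562 to 0.0794.

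These counts stand against the 8564 named genes at the same limit, of which 37.1% had a peak in 1 or more of the 6 lists. In 4.04% it was called in 2 or 3 CIBP lists, in 0.572% in all 3, and in 3.91% in 2 or 3 control lists. More CIBP than control lists had a peak for 15.7% of the genes, and fewer for 15.3%. The pattern of Ntrk2 and Sort1, 3 CIBP lists and 1 control list, was held by 20 named genes, these 2 included, and the opposite pattern by 14. Of those 20 genes, 14 kept 1 control list when all deposited peaks were used, 4 had 2 and 2 had 3. Ntrk2 was among the 4 and Sort1 among the 2. With all deposited peaks, 90.8% of the named genes had a peak somewhere, 21.8% in 2 or 3 CIBP lists, 2.71% in all 3 CIBP lists and 6.66% in 2 or 3 control lists. The CIBP shares then include the list of CIBP 1 with its 50417 peaks. All these shares are over genes of any signal level. By mean input signal in the RIP, Ntrk2 stood at percentile 95.8 of the table, Sort1 at 87.8 and Ntrk3 at 60.3. No share was computed for genes of like signal, and whether peaks recur more often in such genes was not tested.

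**Figure D1:**
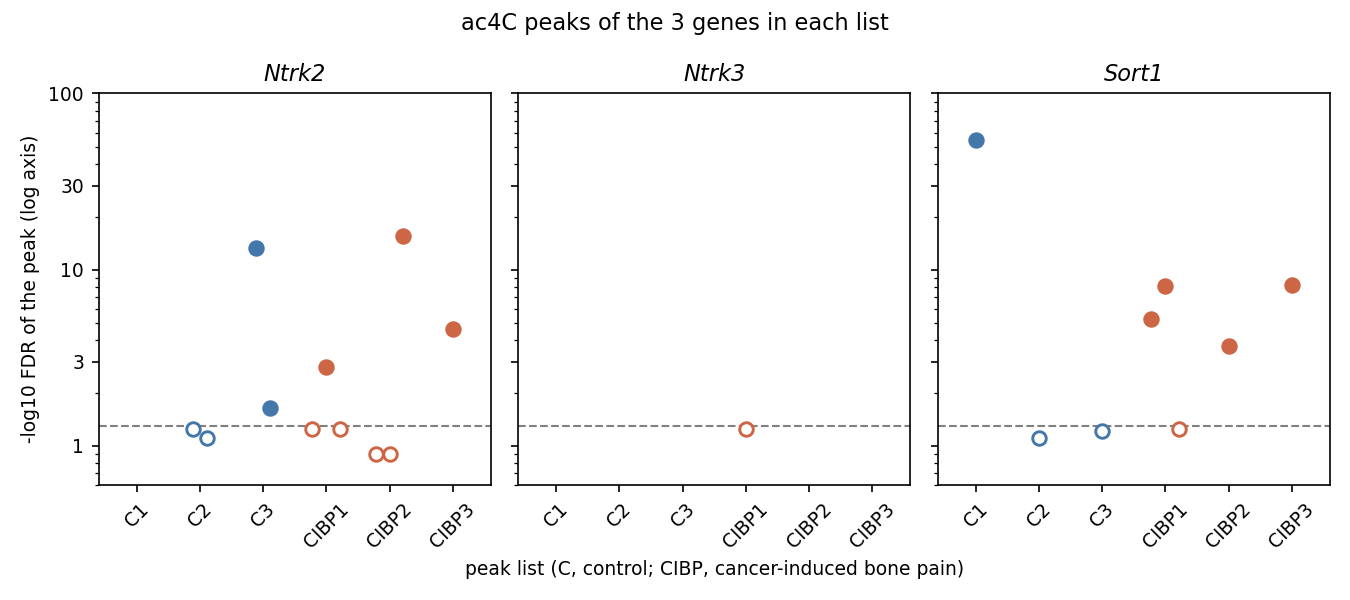
Each point is 1 ac4C peak of Ntrk2, Ntrk3 or Sort1, placed by peak list (C1 to C3, control; CIBP1 to CIBP3, cancer-induced bone pain) and by -log10 of its FDR on a log axis; filled points have an FDR of at most 0.05, the dashed line. The 4 open control points lie just on the far side of the line, at an FDR of 0.0562 to 0.0794, and the single Ntrk3 peak is open.

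Ntrk2 lies on the minus strand of chromosome 17, and its 11 deposited peaks fell into 3 places separated by 125598 and 178809 bp (rn6 coordinates throughout). The most 5′ place spanned positions 6243884 to 6244676, the middle place 6114903 to 6118285 and the most 3′ place 5934417 to 5936093. TrkB is known to be made both as a full-length kinase receptor and as truncated receptors without the kinase, from transcripts with different 3′ ends. No rn6 annotation or genome was used, so exon, intron and untranslated region, the transcript form and the sequence under each peak were not analysed here.

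No Ntrk2 place held a peak under the FDR limit in every CIBP list. The 3 CIBP peaks under the limit lay 1 in each place. CIBP 1 had its peak in the middle place, from 6118105 to 6118285, with a fold enrichment of IP over input of 14.1 and an FDR of 0.00162. CIBP 2 had its peak in the 5′ place, from 6243884 to 6244437, in 2 exon blocks of 39 and 142 bp, with a fold of 27.9 and an FDR of 3.16e-16. CIBP 3 had its peak in the 3′ place, from 5934417 to 5934597, with a fold of 7.57 and an FDR of 2.4e-05. Under the limit, the 3 lists thus had the gene in common and not the place. As deposited, the 3′ place held a peak in all 3 CIBP lists, the 5′ place in 2 and the middle place in 1. CIBP 2 and 3 then shared the same 181 bp of the 3′ place, and CIBP 1 and 2 shared 61 bp of the 5′ place.

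The control peaks of Ntrk2 lay in the same middle and 3′ places. Control 3 had 2 peaks under the limit: 1 in the 3′ place from 5935136 to 5935315, with a fold of 55.8 and an FDR of 6.31e-14, and 1 in the middle place from 6116699 to 6116878, with a fold of 16.7 and an FDR of 0.0229. The fold of 55.8 was the highest of any peak of the 3 genes, and 18 peaks of control 3 held it with the same FDR. Control 2 had 2 peaks above the limit in the middle place, starting at 6114903 and 6117746, with folds of 1.63 and 4.35 and FDRs of 0.0562 and 0.0794. Control 1 had no Ntrk2 peak. Only the 5′ place had no control peak, with 2 CIBP peaks of which 1 was under the limit.

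Peaks of Ntrk2 above the limit in CIBP carried values that recurred across their lists. CIBP 1 had 2 such peaks, in the 3′ and the 5′ place, both at the fold of 10.6 and FDR of 0.0562. CIBP 2 had 2 in the 3′ place, with folds of 10.5 and 3.92 and an FDR of 0.127 each. The fold of 10.5 with that FDR was held by 614 peaks of the list. Recurrence was not limited to CIBP or to that side of the limit. In control 2, 65 peaks had the fold of 4.35 and FDR of 0.0794 of its Ntrk2 peak above the limit. In control 3, 130 peaks shared the fold and FDR of its middle Ntrk2 peak. In CIBP 1, 14 peaks shared those of its Ntrk2 peak under the limit.

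The number of Ntrk2 peaks per list did not separate the groups. Under the limit, controls 1, 2 and 3 held 0, 0 and 2 peaks and CIBP 1, 2 and 3 held 1 each. The groups overlapped, and control 3 held more Ntrk2 peaks than any CIBP list. The means were 0.667 ± 1.15 in controls and 1 ± 0 in CIBP (SD, n = 3 lists each; two-sided exact permutation p = 1, adjusted p = 1 over 3177 named genes with a peak). Without control 3 the difference was 1 peak per list (exact permutation p = 0.1), and without control 1 or control 2 it was 0. With all deposited peaks the counts were 0, 2 and 2 in controls and 3, 3 and 1 in CIBP (exact permutation p = 0.5).

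Sort1 lies on the plus strand of chromosome 2, and its 8 deposited peaks lay within 14751 bp, from 211141322 to 211156072. All 5 CIBP peaks lay in the downstream 3780 bp of that stretch and each was a single exon block. CIBP 1 had 2 peaks under the limit, from 211152563 to 211152683 with a fold of 1.67 and an FDR of 5.5e-06, and from 211153792 to 211153972 with a fold of 3.34 and an FDR of 7.76e-09. CIBP 2 had 1 peak from 211155862 to 211156072, with a fold of 6.97 and an FDR of 0.0002. CIBP 3 had 1 peak from 211152293 to 211152473, with a fold of 5.4 and an FDR of 7.41e-09. The remaining peak of CIBP 1, starting at 211154692, was at the recurrent fold of 10.6 and FDR of 0.0562.

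The control peaks of Sort1 were spread more widely. Control 1 had 1 peak upstream of all the others, from 211141322 to 211146050, joining 3 exon blocks of 21, 190 and 60 bp. Its fold was 14.4 and its FDR 7.94e-55, the highest fold and the lowest FDR of any Sort1 peak. Control 3 had a peak above the limit from 211146020 to 211148724 in 2 blocks of 88 and 63 bp, with a fold of 3.35 and an FDR of 0.0617. Control 2 had a single-block peak above the limit in the downstream stretch, from 211155322 to 211155442. Its fold was 3.26 and its FDR 0.0794, values held by 51 peaks of that list. So 2 of 3 control lists had their Sort1 peak upstream and over several exon blocks, and the third lay among the CIBP peaks. This difference in position was noticed in the data and was not tested.

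**Figure D2:**
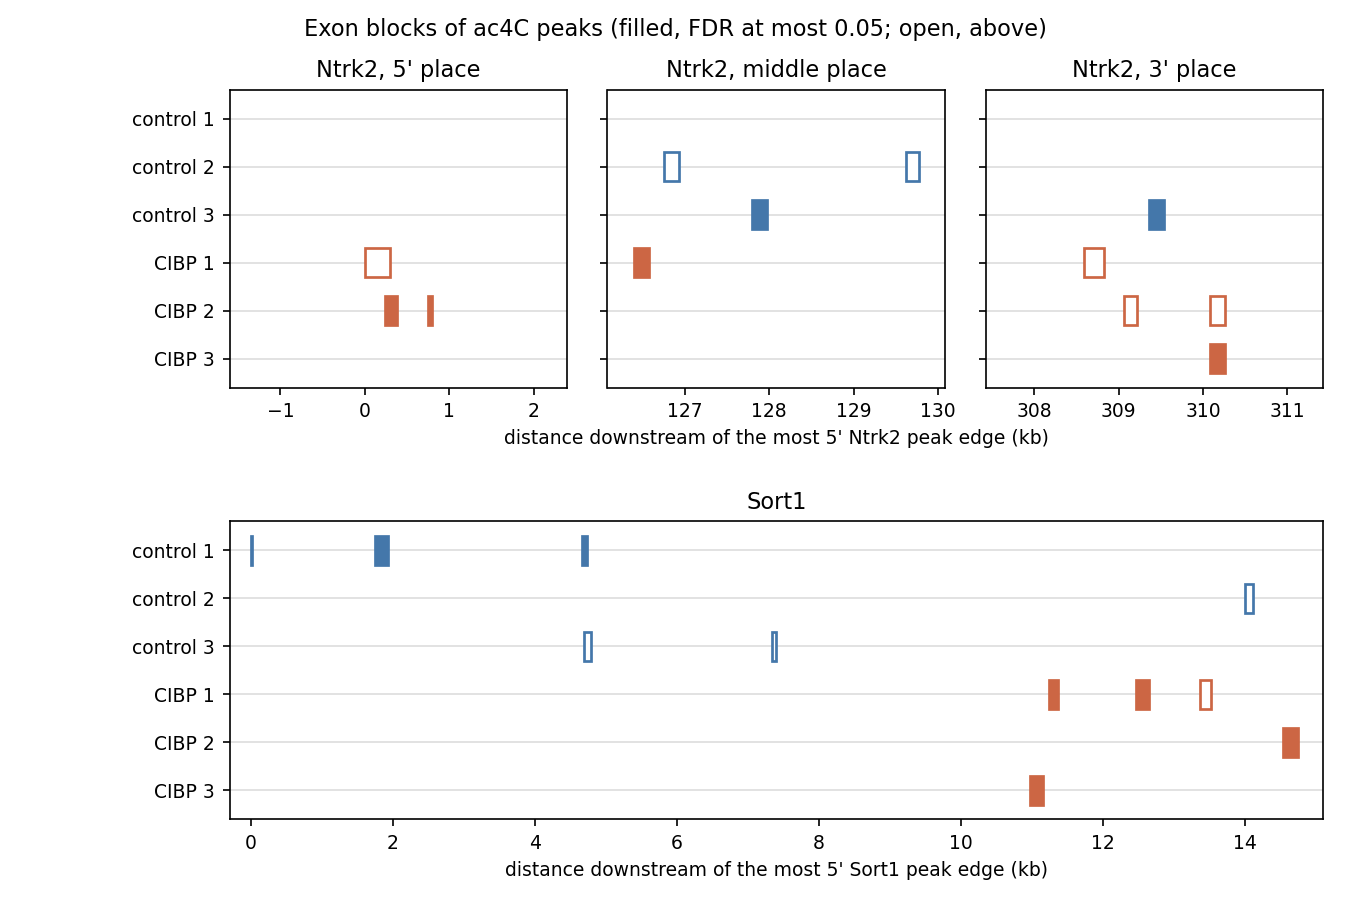
Exon blocks of the ac4C peaks of Ntrk2 (top, the 3 places on separate stretches of 4 kb) and Sort1 (bottom), drawn 5′ to 3′ as distance in kb from the most 5′ peak edge, with 1 row per list; filled blocks belong to peaks with an FDR of at most 0.05. The Sort1 blocks of CIBP begin 10971 bp downstream of the first control 1 block, and control 2 lies among them.

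Sort1 had on average 1 peak per list more in CIBP under the limit, a difference that did not pass the exact test. Controls 1, 2 and 3 held 1, 0 and 0 peaks and CIBP 1, 2 and 3 held 2, 1 and 1. The groups touched at 1 peak, which control 1, CIBP 2 and CIBP 3 all held. The means were 0.333 ± 0.577 and 1.33 ± 0.577 (SD, n = 3 lists each; two-sided exact permutation p = 0.3, adjusted p = 1). Without control 1 the difference was 1.33 (exact permutation p = 0.1), with 2, 1 and 1 peaks against 0 and 0. With all deposited peaks, each control held 1 Sort1 peak and CIBP held 3, 1 and 1 (exact permutation p = 1).

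Fold enrichments of Sort1 in CIBP were low within their own lists. Among the peaks under the limit of the same list, they stood at percentiles 1.41 and 9.58 in CIBP 1, 22 in CIBP 2 and 16.5 in CIBP 3, while control 1 stood at 49. The Ntrk2 peaks under the limit ranged from percentile 21.5 in CIBP 3 to 81.6 for the 3′ peak of control 3. Folds are the authors' values for each peak and were not compared between lists by a test.

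Ntrk3 lies on chromosome 1 and had 1 deposited peak, in CIBP 1, on the minus strand from 139890560 to 139890680. It was 121 bp wide and had the fold of 10.6 and FDR of 0.0562 that 49204 peaks of that list shared to the printed digits. No list held an Ntrk3 peak under the limit, as for 5386 other named genes. Since read depth is unknown, no upper bound on acetylation follows from this.

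Across the 3 genes, 10 of 20 deposited peaks were under the limit, 7 in CIBP and 3 in controls. Of these 10 peaks, 8 were a single exon block, 4 of Ntrk2 and 4 of Sort1. Beside them, 44.7% to 47.3% of all peaks under the limit were single blocks in the 6 lists. All 10 peaks came from these 2 genes, so nothing is read from this contrast. Exonic widths ranged from 121 to 271 bp, beside list medians of 180 to 181 bp. Of these 10 peaks, 0 shared a base with a peak under the limit in another list, beside 13.9% of the 5282 such peaks of named genes. Of the 20 peaks as deposited, 6 overlapped one in another list, beside 11.3% of 26553. The order of the 2 shares thus turned with the FDR limit, and with so few peaks nothing is read from either. The 6 peaks formed 3 overlapping pairs of 72 compared, the 181 bp and 61 bp of Ntrk2 named above and 31 bp between controls 1 and 3 in Sort1, each with 1 peak above the limit.

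For all named genes, the same exact permutation test gave no adjusted p below 0.05 over 3177 genes with a peak under the limit. It could not give an unadjusted p below 0.10, the smallest that 3 lists against 3 allow, and 21 genes reached that value. Neither Ntrk2 nor Sort1 was among them.

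In the RIP from CIBP, all 3 transcripts were more abundant in IP than in input in both pairs; enrichment over input was the condition for a row in the table. Ntrk2 had a normalised signal of 21.9 and 22.1 in the inputs and 116 and 118 in the IP libraries of pairs 1 and 2. Both IP values lay far above both inputs, and the pairs were nearly equal. Its log2 fold in the authors' deposited table was 2.41 (5.31-fold; FDR 2.56e-195), at percentile 50.6 of the table, whose median was 2.4. Sort1 had 10.3 and 11.4 in the inputs and 77.8 and 76 in the IP libraries. Its log2 fold in the authors' deposited table was 2.82 (7.08-fold; FDR 2.26e-196), at percentile 83. Ntrk3 had 3.54 and 4.73 in the inputs and 26.7 and 27.3 in the IP libraries. Its log2 fold in the authors' deposited table was 2.7 (6.5-fold; FDR 2.88e-79), at percentile 75.2. The unit of the signal is not stated in the header and may not be per transcript length. Beyond the input percentiles given above, levels are therefore not compared between the genes.

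**Figure D3:**
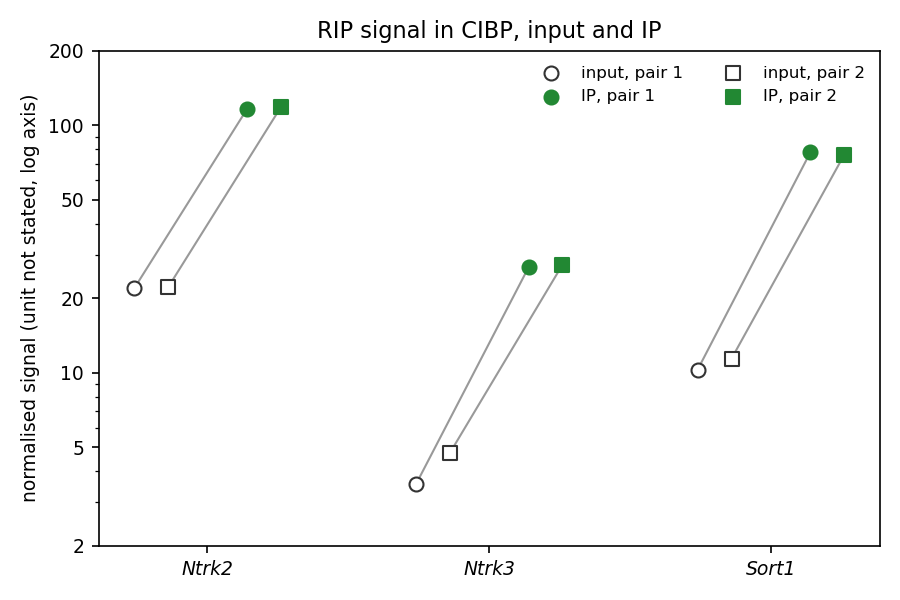
Normalised RIP signal of Ntrk2, Ntrk3 and Sort1 in CIBP on a log axis, with input (open) joined to IP (filled) for pair 1 (circles) and pair 2 (squares). The IP values of Ntrk2 are 116 and 118 over inputs of 21.9 and 22.1, and the Ntrk3 inputs, 3.54 and 4.73, show the largest ratio between pairs.

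The order of the 3 log2 folds was firm only in part. Computed within pairs 1 and 2, the log2 ratio of IP to input was 2.4 and 2.41 for Ntrk2, 2.92 and 2.74 for Sort1 and 2.91 and 2.53 for Ntrk3. The pairs differed by 0.01 for Ntrk2, 0.18 for Sort1 and 0.38 for Ntrk3, beside a median of 0.25 over the table. Sort1 exceeded Ntrk2 by 0.52 in pair 1 and 0.32 in pair 2, with no overlap between their ratios. Ntrk3 exceeded Ntrk2 by 0.51 and 0.12, also without overlap. Sort1 and Ntrk3 differed by 0.01 and 0.2, and their ratios overlapped. With a pseudocount of 1 added to the signals, the log2 folds were 2.36 for Ntrk2, 2.45 for Ntrk3 and 2.72 for Sort1, so Ntrk3 came closer to Ntrk2. With 2 pairs and a table restricted to enriched genes, no test was run on these differences.

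The genes closest to each member over the log2 signal of the 4 RIP libraries were chosen by Euclidean distance, which reflects mainly a like signal level. For Ntrk2 they were Tspan2 (distance 0.0398), a tetraspanin, Itm2c (0.0795) and Usp14 (0.0916), a proteasome-associated deubiquitinase. For Ntrk3 they were Elavl1 (0.0836), an RNA-binding protein, Atg9a (0.0961), an autophagy protein, and Rabggtb (0.102), a subunit of a Rab-prenylating enzyme. For Sort1 they were Pip4k2a (0.104), a phosphoinositide kinase, Usp9x (0.112), a deubiquitinase, and Sept2 (0.116), a septin. Under the limit, Tspan2 had a peak in 2 control and 2 CIBP lists, Usp14 in 2 and 1 and Itm2c in 0 and 0. Usp9x and Sept2 each had one in 1 and 1, and Pip4k2a in 0 and 0. Atg9a had one in 1 and 0, and Elavl1 and Rabggtb in 0 and 0. Over the peak lists, 7 other named genes had a peak under the limit in the same lists as Ntrk2, and 8 in the same lists as Sort1.

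Around these receptors, a list of 100 neurotrophin pathway genes had 77 with a row in the RIP table. The ligand genes Bdnf, Ntf3 and Ntf4 had no row, nor did the receptor gene Ngfr (p75NTR). In the authors' deposited table the 77 genes had a median log2 fold of 2.49, beside 2.4 for all 8671 genes, and 44 of the 77 lay above the table's median. Of the sortilin relatives, Sorcs2 had a log2 fold of 2.63, Sorcs1 of 2.49 and Sorcs3 of 1.72 in the authors' deposited table, so Sort1 had the highest value of its family. Sorl1 had no row. Among these relatives, Sorcs1 and Sorcs3 had a peak under the limit in 1 CIBP list and no control list each.

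The signalling and trafficking genes of the list formed 4 groups with log2 folds in the authors' deposited table. Each group held more genes than the members, and a range widens with the number of genes. Of 18 Trk adaptors and membrane partners, the highest log2 fold was 3.01 for Ptpn11, a phosphatase in Ras signalling, and the lowest 1.89 for Sos1, a Ras exchange factor. Of 8 p75NTR partners they were 2.89 for Traf6, a ubiquitin ligase, and 1.74 for Bex3. Of 27 kinase cascade genes the highest was 3.13, for the GTPase gene Nras. Of 18 genes of sorting and ligand processing the highest was 3.2 for Vps35, a retromer subunit, and the lowest 1.44 for Rab7a, a late endosomal GTPase. The medians of these 4 groups in the authors' deposited table were 2.42, 2.64, 2.6 and 2.24.

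**Figure D4:**
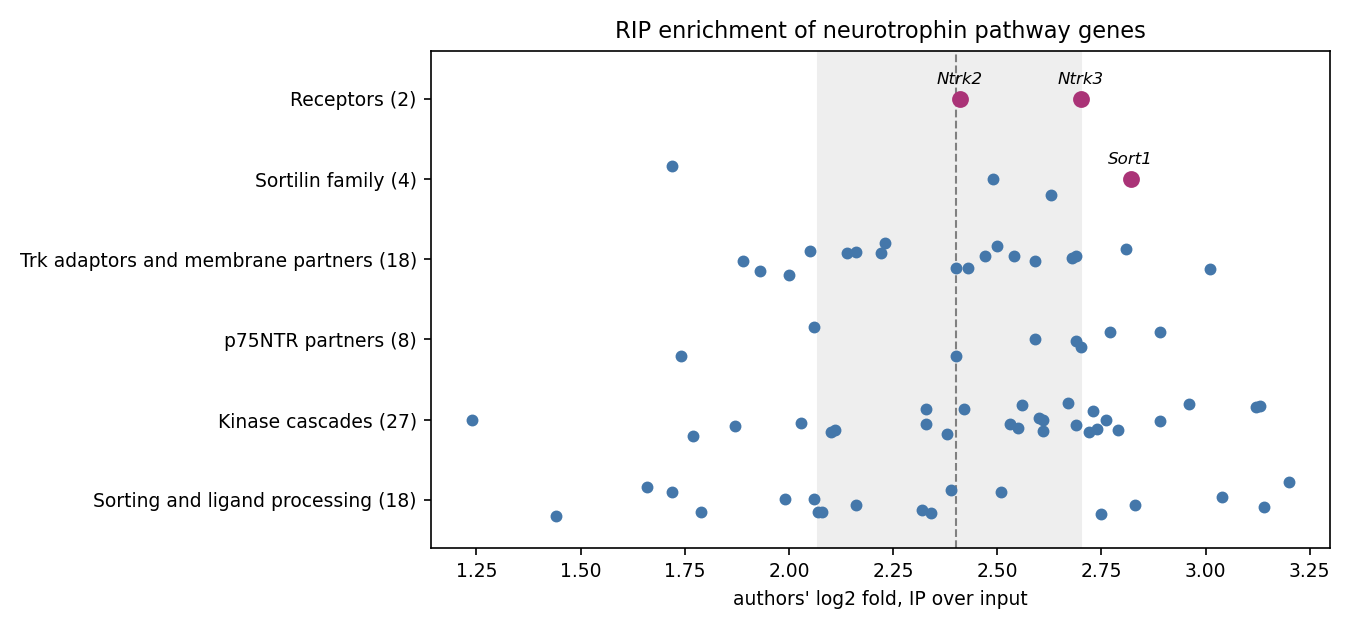
Authors' log2 fold of IP over input for the 77 neurotrophin pathway genes with a row in the RIP table, 1 point per gene and 1 line per group with the number of genes in brackets; points are spread vertically for legibility. The dashed line is the table's median of 2.4 and the grey band its quartiles, 2.07 to 2.7; Ntrk2 lies at the median, Ntrk3 at the upper quartile and Sort1 above it.

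Of the 77 pathway genes, 40 had an ac4C peak under the limit in at least 1 list, 5 in at least 2 CIBP lists and 3 in at least 2 control lists, beside 37.1%, 4.04% and 3.91% of all named genes. The 5 include the members Ntrk2 and Sort1 themselves. The other genes with a peak in at least 2 lists of a group were Mtor, Mapk3, Hap1, Crk and Nedd4. The counts were not compared with the shares by a test, and nothing is read from them. The growth kinase gene Mtor and Mapk3, which encodes the MAP kinase ERK1, were called in 2 CIBP lists and 0 control lists; 1.81% of named genes had 2 or 3 CIBP lists against 0. Mtor had folds of 31.7 in CIBP 1 and of 107 and 26.1 in CIBP 2, and Mapk3 had folds of 3.81 and 10.5 in the same lists. The adaptor gene Crk and the ubiquitin ligase gene Nedd4 had the opposite pattern, 2 control lists against 0; 1.7% of named genes had 2 or 3 control lists against 0. Crk had folds of 10.4 and 3.34 in control 1 and 9.79 in control 2, and Nedd4 had folds of 3.04 to 4.08 in controls 2 and 3. Hap1, a trafficking adaptor, had a peak in 2 lists of each group. These calls are by gene and not by place. The peaks of Mtor, Mapk3 and Nedd4 did not overlap between the 2 lists, nor did those of Hap1 within either group. Only Crk had peaks whose spans overlapped between lists of its group. Between the groups, Hap1 peaks overlapped by span in CIBP 2 (88263688 to 88264147, fold 62.7) and control 3 (88262333 to 88264117, fold 50.2). With all deposited peaks, Mtor had a peak in 3 CIBP lists and 1 control list, and Hap1 in 3 and 2. At that setting Mapk3, Crk and Nedd4 kept the same counts of lists. A peak in 2 or 3 CIBP lists against 0 was then held by 11.4% of named genes, and the opposite by 0.736%. These 2 shares include the deposited list of CIBP 1, in which 49204 of 50417 peaks had one fold and FDR above the limit.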

How the data were processed

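The submitters' processing notes list cutadapt 2.5, HISAT2 2.1.0, HOMER 4.10.4, featureCounts 1.6.3, DESeq2 and the build rn6. They give no roles, and the sources used here name no peak caller. The authors deposited 1 list per IP and input pair with, per the file headers, each peak's fold (the ratio IP/input) and log10 scores of its p-value and FDR. For the RIP the authors deposited a log2 fold, p-value, FDR and normalised signal per library, for genes with log2 folds over 1 and p-values up to 0.0488.

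Deposited starts count from 0 and were raised by 1. Peaks with an FDR of at most 0.05 were the main data. Peaks per list were compared by a two-sided exact permutation test over lists, for every named gene with a peak. Benjamini-Hochberg adjustment was applied (Python 3.11.15, numpy 2.4.6, pandas 2.3.3). The test was checked on simulated counts with added differences larger than any of the members. That check does not show its sensitivity at the counts seen here. Peaks overlapped if exon blocks shared at least 1 bp. Ntrk2 peaks within 10 kb formed a place, a grouping made after seeing them. Symbols shared by 29 sets of rows were left out of the named genes. Named pathway genes were all ligands, receptors and sortilin relatives with a row, the highest and lowest log2 fold of each other group, and genes with a peak in at least 2 lists of a group. A few genes that this rule covers are not reported here. The members and lists were chosen with earlier results of these data known.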

Additional observations from a re-analysis of the deposited data

How the results depend on the processing

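With all deposited peaks, Ntrk3 had a difference of 0.333 peaks per list (CIBP minus control; exact permutation p = 1) in place of 0, Ntrk2 of 1 in place of 0.333 and Sort1 of 0.667 in place of 1. Then 2 of the 3 genes instead of 0 had a peak in at least 2 control lists. Leaving out single lists gave differences of 0 to 1 for Ntrk2, 0 to 0 for Ntrk3 and 0.667 to 1.33 for Sort1, with exact permutation p-values from 0.1 to 1. Overlapping pairs of peaks fell from 3 to 1 when 50% of the shorter peak had to be shared, and to 0 with an FDR of at most 0.05 in both lists, a choice made after seeing the data. With a pseudocount of 1 the log2 fold was 2.36 for Ntrk2, 2.45 for Ntrk3 and 2.72 for Sort1. Without single RIP pairs it was 2.4 to 2.41 for Ntrk2, 2.53 to 2.91 for Ntrk3 and 2.74 to 2.92 for Sort1. With the replicate number as a block, the difference was 0.333 for Ntrk2, 0 for Ntrk3 and 1 for Sort1 (exact sign-flip permutation p = 1, 1 and 0.25, the smallest that 3 pairs can give). Deviations of same-numbered lists from the group means over 3805 genes correlated at -0.009, 0.004 and -0.006. Lists with different numbers gave -0.016 to 0.023. Peaks recurred little between any lists, so these values cannot show whether a number marks a pairing. No difference in peaks per list became negative, but that of Ntrk2 fell to 0 without control 1 or control 2. Counts cannot be negative, and the RIP table was restricted to log2 folds over 1, so their sign shows nothing. The exact tests of peak counts could not pass 0.05 under any setting, so their p-values say nothing about stability. Read depth is unknown and limits what an absent peak shows.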
